A study of Homo sapiens with 9 samples.

Results

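Messages of the NRF2, thioredoxin and glutathione antioxidant systems were examined in hCMEC/D3, an immortalised endothelial line derived from human brain microvessels that serves in cultures modelling the blood-brain barrier. The set held 39 genes, taken by symbol: the transcription factor NRF2 with its partners and inhibitors, and enzymes that remove peroxides and superoxide, reduce disulfides, make or use glutathione, or supply NADPH. All 39 were found among the 15570 genes listed, and 38 of them entered the tests. The exception was AKR1C1, an aldo-keto reductase, which reached at most 0.274 FPKM in any library. FPKM counts fragments per kilobase of transcript, scaled to the fragments mapped in a library, so levels of different genes can be compared per length.

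RNA had been measured in 9 libraries. In the OGD/R group (n = 3), cells without glucose had been held for 4 h under 95% N2 and 5% CO2 (oxygen and glucose deprivation, OGD) and then returned to normal medium for 16 h at 21% O2 and 5% CO2. In the OGD group (n = 3) they were taken after the 4 h of deprivation. In the control group (n = 3) they had neither treatment, and how those dishes were handled over the same hours is not described. All groups were the same line, the labels name no other agent, and nothing states that replicates were separate cultures, so the spread behind every p-value is that among these libraries and may be technical.

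As background, NRF2 (gene NFE2L2) is held low in unstressed cells by KEAP1, which presents it for degradation. When KEAP1 is modified by oxidants or electrophiles, NRF2 accumulates, pairs with a small MAF protein and binds antioxidant response elements, where BACH1 is its repressive competitor. Much of this control acts on the NRF2 protein rather than on its message. Thioredoxin and glutathione are parallel reducing systems that both draw on NADPH: thioredoxin reductase recharges thioredoxin, which serves the peroxiredoxins, and glutathione reductase recharges glutathione, which serves the glutathione peroxidases and glutaredoxins. In brain endothelium these systems are studied for the oxidant burst that follows the return of oxygen after ischaemia.

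FPKM summed to between 442696 and 605818 per library, and the depth in reads is unknown. The deposited scale was not centred: the median log2 fold change of the 10818 genes tested was -0.31 in OGD against control, 0.39 in OGD/R against OGD and 0.07 in OGD/R against control. Each call (adjusted p under 0.05) was therefore also examined after median-of-ratios scaling, after quantile normalization and after removal of the trend with transcript length, and a call is described as kept on 4 scales when it had the same direction on the deposited scale and on these other 3. Of the genes called for OGD against control, 19.4% were higher in OGD on the deposited scale, compared with 53.4%, 47.2% and 50.5% on the other scales as listed. The corresponding shares were 75.4%, 48.8%, 50.1% and 50% in OGD/R against OGD; they were 59.9%, 49%, 48.9% and 50.1% in OGD/R against control. Fold changes below are log2 differences of FPKM + 1 on the deposited scale, with a relative value (after subtracting the median of all genes) where given.

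The endothelial label was weakly borne out by its markers. Of 14 endothelial markers, 6 reached 1 FPKM in at least 3 libraries, with MCAM the highest at up to 64.9 FPKM, while CDH5 and PECAM1 stayed at or under 2.62 and 1.55 FPKM and VWF and CLDN5 at or under 0.088 and 0.101 FPKM. Astrocyte, neuron and epithelial markers stayed under 1 FPKM. Of 5 microglia and leukocyte markers, CD68 alone passed that level, at up to 27.2 FPKM, and their sum was 25.7 to 27.3 FPKM in OGD/R, 20.7 to 21.8 in OGD and 17.2 to 20.7 in control. The sum of the endothelial markers was 105 to 118 FPKM in OGD/R, 36.1 to 37.2 in OGD and 49.4 to 61.7 in control. The sum of 6 fibroblast markers, carried by COL1A1 and COL1A2, was 52.2 to 69.7 FPKM in OGD/R, 9.23 to 10.8 in OGD and 20.5 to 28.6 in control. The sum of 8 pericyte and smooth muscle markers was 18.8 to 21.6 FPKM in OGD/R, 6.33 to 7.96 in OGD and 10.8 to 14.6 in control. The endothelial, fibroblast and pericyte sums ran in the same order and did not overlap between groups, and the part of these sums in the results below was not tested. In bulk RNA, a different make-up of the cells and a different message level per cell cannot be told apart.

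**Figure D1:**
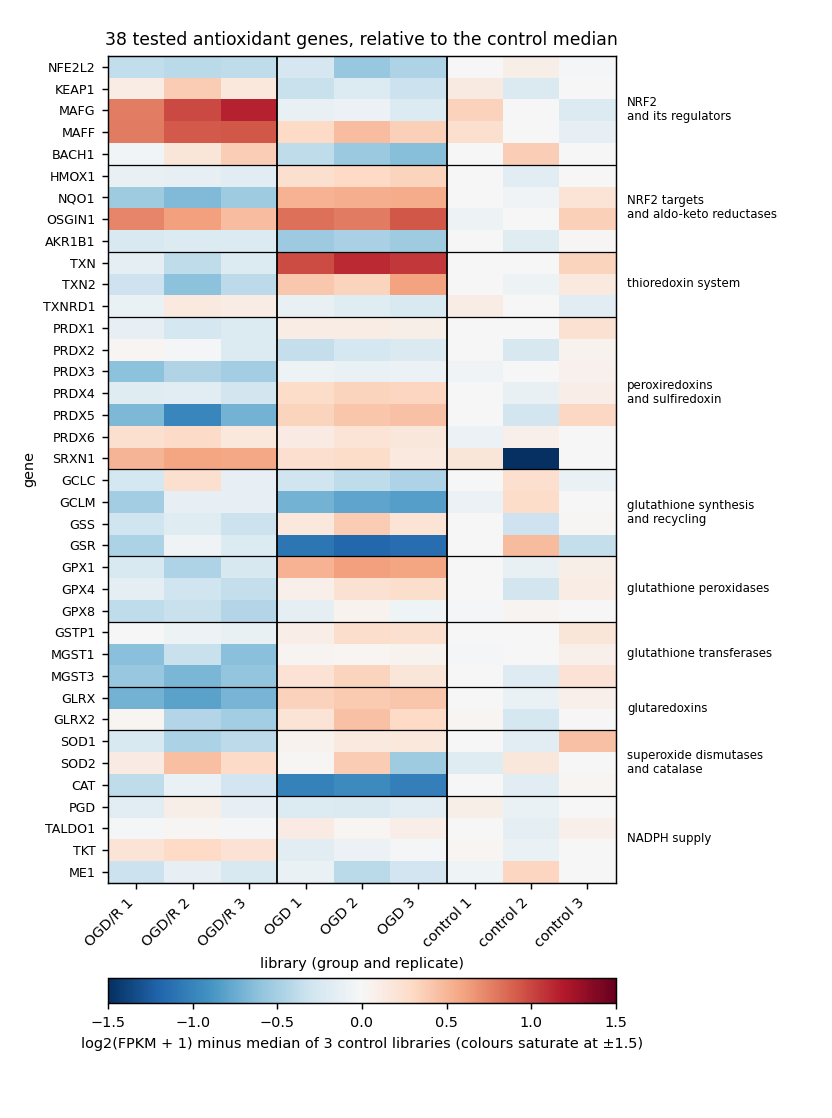
Heat map of the 38 tested antioxidant genes (rows, by role) in 9 libraries (columns, by group and replicate); colour is log2(FPKM + 1) minus the median of the 3 control libraries, saturating at 1.5 in either direction. TXN, NQO1, GPX1 and GLRX are red in all 3 OGD libraries, GSR, CAT and GCLM are blue there, MAFG and MAFF are red in OGD/R, and the dark cell of SRXN1 is its listed 0 in control replicate 2.

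After deprivation the antioxidant genes did not move as a block. Against control, 12 of the 38 tested members were higher in OGD, beside 11.3% of all genes tested, and 8 were lower, beside 46.7%; in either direction 20 were called, beside 58% of all genes. As shares these are 31.6% higher and 21.1% lower, and the members' median log2 fold change was 0.03, or 0.34 relative to all genes. On 4 scales, 9 kept the rise (TXN, TXN2, NQO1, HMOX1, OSGIN1, GPX1, GLRX, GSS and MAFF) and 3 kept the fall (GSR, GCLM and CAT). Of all genes tested, median-of-ratios scaling called 26.5% higher and 23.1% lower, quantile normalization 20.0% and 22.4%, and length trend removal 21.7% and 21.2%. The share of all genes that kept a call on 4 scales was not computed, here or for the comparisons below. One member, GSR, changed at least 2-fold, a size that 4.63% of all genes passed downward and 1.56% upward.

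Reoxygenated cells differed from deprived ones mostly in the opposite direction. For OGD/R against OGD, 18 members were lower in OGD/R, beside 17.4% of all genes tested, and 10 were higher, beside 53.3%; the 28 calls stand beside 70.7% of all genes. The members' median was -0.17, or -0.56 relative to all genes. Calls kept on 4 scales numbered 11 lower (TXN, TXN2, NQO1, HMOX1, PRDX5, GPX1, GPX8, GSS, MGST1, MGST3 and GLRX) and 3 higher (MAFG, GSR and CAT). Of all genes, the other scales in the same order called 34.2%, 31.3% and 29.5% lower and 32.6%, 31.4% and 29.5% higher. Falls of at least 2-fold were those of TXN, NQO1, GLRX and PRDX5, against 3.52% of all genes, and the 1 such rise was that of MAFG, against 17% of all genes.

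Against control, OGD/R had 13 members lower, beside 16.5% of all genes tested, and 5 higher, beside 24.7%; the 18 calls stand beside 41.2% of all genes. The median was -0.20, or -0.27 relative to all genes. No member was called with a 2-fold change in FPKM + 1, beside 3.04% of all genes upward and 0.444% downward. That scale shrinks changes of low genes: mean FPKM in OGD/R and control was 5.62 and 2.51 for MAFG, and 1.28 and 0.613 for OSGIN1. Falls kept on 4 scales were those of NFE2L2, NQO1, TXN2, PRDX3, PRDX5, GPX8, MGST1, MGST3 and GLRX (9 members), and the rises so kept were those of MAFG and MAFF. The other scales, in the order above, called 23.0%, 23.1% and 22.0% of all genes lower and 22.1%, 22.1% and 22.0% higher. Each group enters 2 of these 3 comparisons, so a gene high in OGD tends to appear higher in the first and lower in the second.

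**Figure D2:**
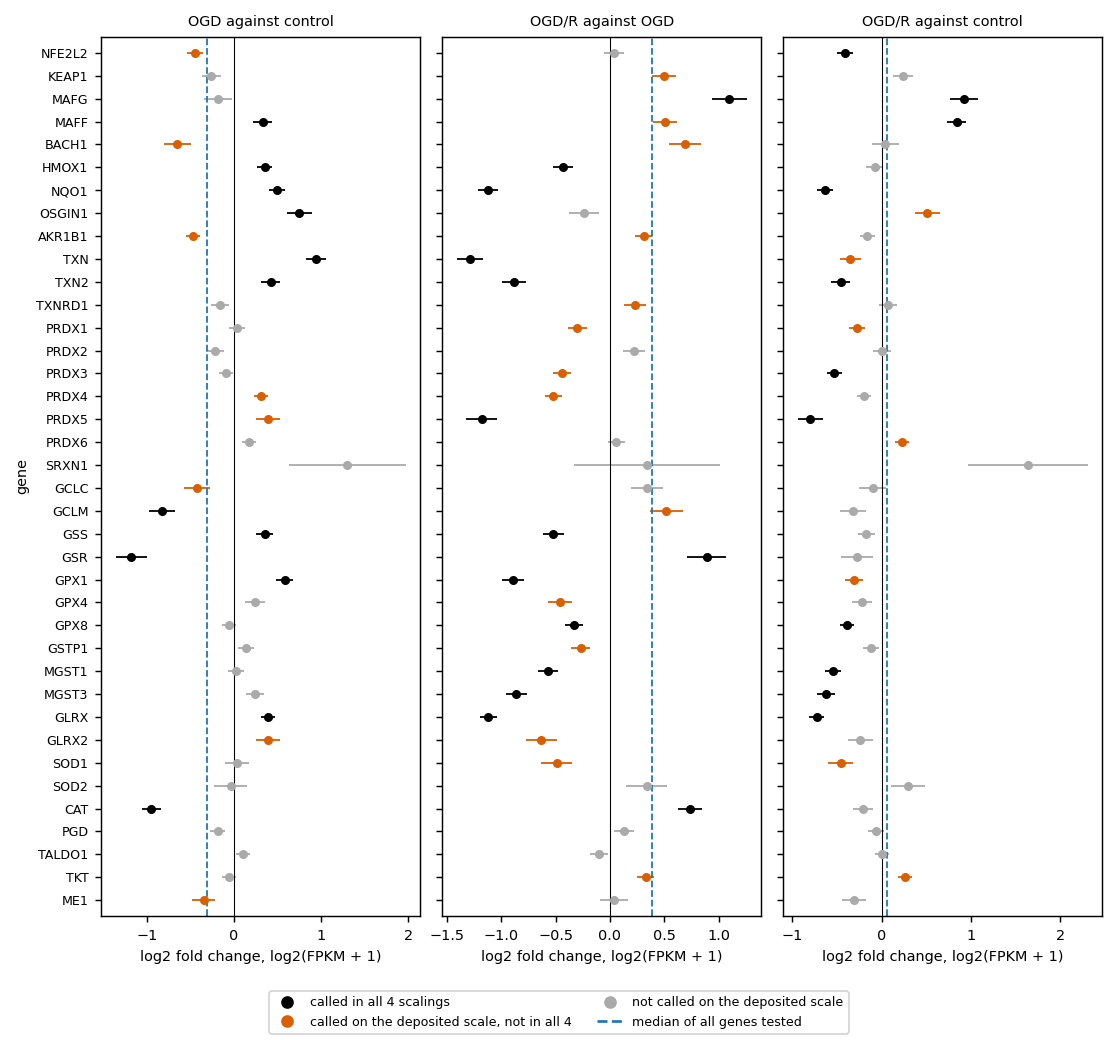
Log2 fold changes of the 38 tested genes (rows) in 3 comparisons (panels) with bars of 1 standard error; black points are calls kept on 4 scales, orange points are calls on the deposited scale not kept on all 4, and grey points were not called on the deposited scale. The dashed line is the median of all 10818 genes tested, at -0.31, 0.39 and 0.07 from left to right; TXN, NQO1 and GLRX lie to the right of 0 in the first panel and left of it in the second.

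Among the regulators, the message of NRF2 itself was lower in both treated groups. NFE2L2 (NCBI Gene 4780, chromosome 2, 177230303 to 177264727 on GRCh38) had 44.7, 43.6 and 44.2 FPKM in OGD/R, 48.7, 38.7 and 41.7 in OGD, and 58.0, 61.6 and 57.5 in control. Every treated library lay below every control library, and OGD/R and OGD overlapped. The fall was kept on 4 scales for OGD/R against control (log2 fold change -0.41, SE 0.09, adjusted p = 0.0043), whereas for OGD against control (-0.45, adjusted p = 0.00157, relative value -0.14) it was not called after median-of-ratios scaling (adjusted p = 0.471) or length trend removal (adjusted p = 0.256). Between OGD/R and OGD the value was 0.04 (adjusted p = 0.689), and NFE2L2 was called lower after median-of-ratios scaling (-0.42) and length trend removal (-0.35).

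The small MAF genes, whose proteins are the DNA-binding partners of NRF2, were highest in OGD/R. MAFG (NCBI Gene 4097, chromosome 17, 81918270 to 81931244) had 4.71, 5.68 and 6.46 FPKM in OGD/R, 2.10, 2.17 and 1.92 in OGD, and 3.26, 2.36 and 1.91 in control. OGD/R lay above all other libraries, while OGD lay within the range of control. It was higher in OGD/R than in OGD (1.10, SE 0.16, adjusted p = 5.87e-05) and than in control (0.92, SE 0.16, adjusted p = 0.000785), both kept on 4 scales. Its locus overlaps the antisense gene MAFG-AS1, and whether the counting used strand is not given in the sources used here. MAFF averaged 23.5 ± 1.35 FPKM in OGD/R, 16.2 ± 1.02 in OGD and 12.7 ± 1.81 in control (SD, n = 3), with no overlap between any pair of groups. MAFF, which overlaps TMEM184B on the genome, rose in OGD/R against control (0.84, adjusted p = 0.000164) and in OGD against control (0.33, adjusted p = 0.0232), on 4 scales each. The smaller of these calls was lost without OGD replicate 2, OGD replicate 3 or control replicate 3 (adjusted p from 0.0568 to 0.0956). MAFF in OGD/R against OGD was called on the deposited scale (0.51, relative value 0.12) but not after median-of-ratios scaling or quantile normalization. MAFK, the remaining small MAF gene and one of the pathway genes outside the set, averaged 14.2 ± 2.62, 4.59 ± 0.364 and 7.68 ± 2.09 FPKM in OGD/R, OGD and control. MAFK was higher in OGD/R than in OGD (1.43, adjusted p = 1.95e-05) and control (0.83, adjusted p = 0.00335) on 4 scales.

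The inhibitors BACH1 and KEAP1 kept no call on 4 scales. BACH1, the repressor at antioxidant response elements, averaged 9.25 ± 1.42 FPKM in OGD/R, 5.34 ± 0.572 in OGD and 8.96 ± 1.53 in control (SD, n = 3). It was called lower in OGD against control (-0.65, relative value -0.34, adjusted p = 0.00281) and higher in OGD/R against OGD (0.69, relative value 0.30, adjusted p = 0.00108), and none of the other 3 scales called either. The ratio of MAFG to BACH1 within a library, chosen after the values had been seen, was 0.602, 0.613 and 0.606 in OGD/R, 0.351, 0.419 and 0.396 in OGD, and 0.403, 0.22 and 0.237 in control. KEAP1 averaged 32.0 ± 3.39, 22.2 ± 1.07 and 26.9 ± 3.35 FPKM in OGD/R, OGD and control. It was called for OGD/R against OGD (0.50, relative value 0.11, adjusted p = 0.00144) and after quantile normalization, but not on the other scales. OGD against control did not pass (-0.26, adjusted p = 0.0618), and KEAP1 was called lower without control replicate 2 (adjusted p = 0.0163) or OGD/R replicate 2 (adjusted p = 0.0483). Against control, OGD/R did not pass either (0.24, adjusted p = 0.0981), and KEAP1 was called higher without control replicate 1 (adjusted p = 0.0403).

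The antioxidant response element, the site bound by NRF2 with a small MAF, was searched by its core letters TGACNNNGC on both strands of RefSeq promoter windows (GRCh38.p14, 250 bases before to 50 after each start). Windows of 32 of the 39 members were searched. GSR was left out of this search, while the shares of all windows and of tested genes had no such exclusion. Of these 32 members, 8 (25.0%) held the core in at least 1 window, beside 19.5% of 8999 tested genes with a window and 13.3% of all 35116 windows. All 12 matches are printed, to show how far the bases differ between members that share the core. Capitals mark it, as the letters or their reverse complement, with 10 bases on each side, 5′ to 3′ on the gene's strand.
GCLM, chr1:93909446-93909474, minus strand: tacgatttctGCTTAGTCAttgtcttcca
KEAP1, chr19:10502784-10502812, minus strand: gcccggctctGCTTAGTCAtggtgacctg
KEAP1, chr19:10502807-10502835, minus strand: acttttattgTGACACGGCgggcgcccgg
TXNRD1, chr12:104286920-104286948, plus strand: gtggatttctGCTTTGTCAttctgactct
TXNRD1, chr12:104215670-104215698, plus strand: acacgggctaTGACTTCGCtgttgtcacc
TXNRD1, chr12:104215761-104215789, plus strand: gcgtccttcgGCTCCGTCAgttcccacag
GSTP1, chr11:67583736-67583764, plus strand: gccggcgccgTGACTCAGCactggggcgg
ME1, chr6:83431170-83431198, minus strand: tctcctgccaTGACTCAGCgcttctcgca
ME1, chr6:83431022-83431050, minus strand: gctgcagtcaGCACCGTCAccccagcagc
MGST1, chr12:16347135-16347163, plus strand: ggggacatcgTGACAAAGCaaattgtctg
PGD, chr1:10398853-10398881, plus strand: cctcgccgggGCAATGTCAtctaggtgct
MAFF, chr22:38201862-38201890, plus strand: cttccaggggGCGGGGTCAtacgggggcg
GCLM and the first KEAP1 match share the same 9 bases, as do GSTP1 and the first ME1 match, and the last pair also overlaps the AP-1 letters TGANTCA. AP-1 letters were in windows of 4 of the 32 members (12.5%) and of 6.68% of the tested genes with a window. The 8 genes with a core did not share a direction: for OGD against control MAFF was called higher, GCLM and ME1 lower, and TXNRD1, GSTP1, MGST1, PGD and KEAP1 were not called. A match is a description of letters, not a site in use, and windows without one (TXN and NQO1 among them) show only that these letters are not in these 300 bases.

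The 250 bases before the start of the regulated glutathione synthesis gene GCLM (chr1:93909431-93909680, minus strand) and of thioredoxin TXN (chr9:110256508-110256757, minus strand) are printed because the first fell and the second rose in OGD on 4 scales. The first holds 1 core in capitals and the second holds none, and 72.4% and 73.6% of their bases are G or C.
GCLM: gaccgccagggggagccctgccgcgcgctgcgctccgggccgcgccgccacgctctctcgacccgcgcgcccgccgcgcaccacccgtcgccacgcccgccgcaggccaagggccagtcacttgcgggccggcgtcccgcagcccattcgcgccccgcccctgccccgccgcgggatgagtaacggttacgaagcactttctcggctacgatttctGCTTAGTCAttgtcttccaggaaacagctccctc
TXN: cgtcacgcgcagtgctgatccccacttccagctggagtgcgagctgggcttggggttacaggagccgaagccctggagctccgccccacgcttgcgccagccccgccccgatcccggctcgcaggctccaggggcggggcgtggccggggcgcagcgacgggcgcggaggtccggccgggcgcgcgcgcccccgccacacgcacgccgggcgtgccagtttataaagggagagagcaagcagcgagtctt

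Among the best known NRF2 targets, NQO1, HMOX1 and OSGIN1 were higher in OGD. NQO1, a quinone reductase (NCBI Gene 1728, chromosome 16, 69709401 to 69726560, overlapping NQO1-AS1), had 106, 97.2 and 106 FPKM in OGD/R, 222, 225 and 227 in OGD, and 154, 149 and 178 in control. The 3 groups did not overlap, with OGD highest and OGD/R lowest. NQO1 rose in OGD against control (0.49, SE 0.09, adjusted p = 0.00068, relative value 0.80), and it fell in OGD/R against OGD (-1.12, SE 0.09, adjusted p = 6.58e-07) and against control (-0.63, SE 0.09, adjusted p = 0.000216). Each of these calls was kept on 4 scales. NQO1 was therefore below control after reoxygenation.

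HMOX1, the haem-degrading oxygenase HO-1, averaged 15.7 ± 0.342 FPKM in OGD/R, 21.5 ± 0.703 in OGD and 16.7 ± 1.11 in control (SD, n = 3). The rise in OGD against control (0.35, adjusted p = 0.00649) and the fall in OGD/R against OGD (-0.43, adjusted p = 0.00109) were kept on 4 scales, and OGD/R against control did not pass (-0.08, adjusted p = 0.5). OSGIN1, an oxidative stress induced growth inhibitor, lay near the expression filter, with 1.49, 1.29 and 1.07 FPKM in OGD/R, 1.65, 1.58 and 1.86 in OGD, and 0.423, 0.5 and 0.915 in control. Both treated groups lay above control, and OGD lay above OGD/R. Between OGD/R and OGD the value of OSGIN1 did not pass on the deposited scale (-0.24, adjusted p = 0.151), but it was called lower on the other 3 scales. Its rise in OGD against control was kept on 4 scales (0.75, adjusted p = 0.00102). That in OGD/R against control (0.51, adjusted p = 0.0138) was not called after quantile normalization (adjusted p = 0.152) or without OGD/R replicate 1 (adjusted p = 0.0502). OSGIN1 overlaps NECAB2 on the genome.

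AKR1B1, aldose reductase, had the opposite shape. It had 311, 316 and 315 FPKM in OGD/R, 249.8, 259 and 251 in OGD, and 364, 319.9 and 369 in control, with 3 groups that did not overlap. On the deposited scale it fell in OGD against control (-0.47, adjusted p = 0.000703) and rose in OGD/R against OGD (0.31, adjusted p = 0.00557), as it did after quantile normalization and length trend removal. After median-of-ratios scaling neither was called (-0.10 and -0.16). OGD/R against control did not pass (-0.16, adjusted p = 0.15), and AKR1B1 was called lower there without control replicate 2 (adjusted p = 0.0347). The gene has 8 pseudogenes named after it in RefSeq, with which reads may be shared.

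Thioredoxin was the most abundant of the 39 messages. TXN (NCBI Gene 7295, chromosome 9, 110243810 to 110256507) had 640.0, 539 and 609.8 FPKM in OGD/R, 1383.2, 1521.0 and 1464.8 in OGD, and 702, 699.7 and 882 in control. The OGD libraries lay far above all others and the OGD/R libraries below all others. TXN rose in OGD against control (0.94, SE 0.12, adjusted p = 6.51e-05) and fell in OGD/R against OGD (-1.29, SE 0.12, adjusted p = 1.7e-06) on 4 scales, at 0.65 and -0.67 with the length trend removed. Against control the fall in OGD/R (-0.35, adjusted p = 0.0315) was not called with the length trend removed (adjusted p = 0.824) or quantile normalization (adjusted p = 0.0602), when no expression filter was applied (adjusted p = 0.0599) or in a fit of those groups alone (adjusted p = 0.0719). It was also lost without OGD/R replicate 2, OGD/R replicate 3, OGD replicate 3 or control replicate 3 (adjusted p from 0.0504 to 0.118). TXN has 7 named pseudogenes.

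The mitochondrial thioredoxin had the same calls as the cytosolic form, whereas cytosolic thioredoxin reductase had no call of fixed direction. The mitochondrial reductase TXNRD2, from the pathway lists and named after its values had been seen, rose in OGD against control (0.84, adjusted p = 8.5e-05) and fell in OGD/R against OGD (-1.01, adjusted p = 6.4e-06) on 4 scales. TXN2 averaged 38.2 ± 4.33 FPKM in OGD/R, 71.3 ± 7.17 in OGD and 52.8 ± 4.25 in control (SD, n = 3). It rose in OGD against control (0.42, adjusted p = 0.00556), and fell in OGD/R against OGD (-0.88, adjusted p = 1.59e-05) and against control (-0.46, adjusted p = 0.00521), on 4 scales each. TXNRD1, a selenoprotein, averaged 101 ± 9.23, 85.8 ± 3.55 and 96.1 ± 9.15 FPKM in OGD/R, OGD and control. For OGD against control it was not called (-0.16, adjusted p = 0.175), and was called higher after median-of-ratios scaling (0.21) and length trend removal (0.27). Between OGD/R and OGD it was called higher on the deposited scale (0.23, adjusted p = 0.0481) but lower with the length trend removed (-0.38) or by median-of-ratios scaling (-0.23), so its direction depends on the scale. Leaving out OGD/R replicate 2 or 3 or any OGD replicate also ended that call (adjusted p from 0.0626 to 0.148).

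A ratio of FPKM values of 2 genes within a library is not changed by a factor applied to the whole library, as in median-of-ratios scaling, but it is changed by quantile normalization and by removal of the length trend, and the 3 such ratios of reducing enzymes given from here on were also chosen after the values had been seen. The ratio of TXN to TXNRD1 was 7.06, 4.99 and 5.82 in OGD/R, 15.4, 17.8 and 17.7 in OGD, and 6.70, 7.21 and 10.2 in control. OGD stood above the other groups, which overlapped each other. The log2 fold change of TXN minus that of TXNRD1 was 1.10 in OGD against control and -1.52 in OGD/R against OGD on the deposited scale, 0.57 and -0.92 after quantile normalization, and 0.38 and -0.29 with the length trend removed (TXN has 869 bases and TXNRD1 has 4277).

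**Figure D3:**
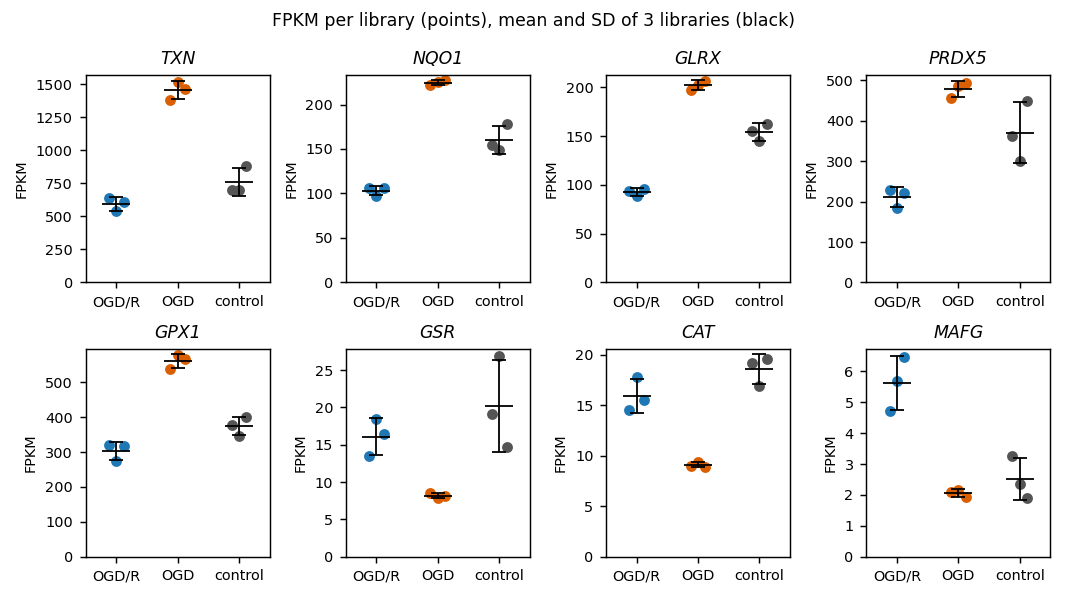
FPKM of 8 antioxidant genes (panels, each axis from 0) in OGD/R, OGD and control; coloured points are the 3 libraries of a group and black bars their mean and SD. TXN, NQO1, GLRX, PRDX5 and GPX1 are highest in OGD and lowest in OGD/R, GSR and CAT are lowest in OGD, and MAFG is highest in OGD/R, at 4.71 to 6.46 FPKM.

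Of the peroxiredoxins, thiol peroxidases recharged by thioredoxin in most cases, none kept a call on 4 scales for OGD against control, and 1 did for OGD/R against OGD. PRDX5, found in mitochondria, peroxisomes and cytosol (NCBI Gene 25824, chromosome 11, 64318121 to 64321811, overlapping TRMT112), had 228, 184 and 222 FPKM in OGD/R, 457, 486 and 494 in OGD, and 363, 300.3 and 449 in control. The groups did not overlap, and OGD/R was lowest. It fell in OGD/R against OGD (-1.18, SE 0.14, adjusted p = 9.55e-06) and against control (-0.80, SE 0.14, adjusted p = 0.000717) on 4 scales. Its rise in OGD against control (0.39, adjusted p = 0.027) was not called with the length trend removed (adjusted p = 0.275) or quantile normalization (adjusted p = 0.303), nor with no expression filter (adjusted p = 0.0662). It was also lost without OGD replicate 2 or 3 or control replicate 1 or 2 (adjusted p from 0.064 to 0.0955).

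PRDX1, the most abundant peroxiredoxin, had 446, 405 and 422 FPKM in OGD/R, 525, 526 and 518 in OGD, and 487, 486 and 571 in control. OGD lay inside the range of control, and OGD/R lay below both. For OGD against control the value was 0.03 (adjusted p = 0.807), called higher after median-of-ratios scaling (0.40) and lower after quantile normalization (-0.24). The falls in OGD/R against OGD (-0.30, adjusted p = 0.0112) and against control (-0.28, adjusted p = 0.0324) were kept after median-of-ratios scaling only. The second of them was also lost when any of 6 single libraries was left out: OGD/R replicate 2 or 3, any OGD replicate, or control replicate 3 (adjusted p from 0.0541 to 0.0928). PRDX1 overlaps MMACHC.

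PRDX3, the mitochondrial peroxiredoxin, averaged 245 ± 13.6 FPKM in OGD/R, 334 ± 4.00 in OGD and 355 ± 14.1 in control (SD, n = 3). Its fall in OGD/R against control was kept on 4 scales (-0.53, adjusted p = 0.000394), and that against OGD (-0.44, adjusted p = 0.000381) was not called after quantile normalization (adjusted p = 0.844). Its value for OGD against control (-0.09, adjusted p = 0.367) took either sign with scaling, called higher after median-of-ratios scaling (0.28) and lower after quantile normalization (-0.34). PRDX4, the peroxiredoxin of the endoplasmic reticulum, averaged 141 ± 5.99, 202 ± 4.61 and 163 ± 11.7 FPKM in OGD/R, OGD and control. It rose in OGD against control (0.31, adjusted p = 0.00663) and fell in OGD/R against OGD (-0.52, adjusted p = 0.000128) except after removing the length trend, which left 0.09 (adjusted p = 0.254) and -0.01 (adjusted p = 0.949). PRDX4 in OGD/R against control (-0.20, adjusted p = 0.0649) was called lower without control replicate 2 (adjusted p = 0.0245).

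PRDX2 averaged 235 ± 20.7 FPKM in OGD/R, 202 ± 9.98 in OGD and 236 ± 25.3 in control, and passed in no comparison on the deposited scale. With the length trend removed PRDX2 was lower in OGD against control (-0.45, adjusted p = 0.000981) and higher in OGD/R against OGD (0.74, adjusted p = 1.61e-05), and quantile normalization gave the same calls (-0.34 and 0.51). Without control replicate 2 it was called lower in OGD against control (adjusted p = 0.0165) and higher in OGD/R against OGD (adjusted p = 0.0334), and this second call was also made without OGD/R replicate 3 (adjusted p = 0.0393). PRDX6, the peroxiredoxin that uses glutathione, averaged 107 ± 5.13, 103 ± 3.27 and 91.5 ± 5.40 FPKM in OGD/R, OGD and control. It was called higher for OGD/R against control (0.23, adjusted p = 0.0389), which median-of-ratios scaling removed (adjusted p = 0.292), as did a fit of those groups alone (adjusted p = 0.112) and leaving out any library but control replicate 2 (adjusted p from 0.0543 to 0.107). Between OGD/R and OGD the sign for PRDX6 depends on the scale (-0.41 after median-of-ratios scaling, 0.21 after quantile normalization, both called). Without that library PRDX6 was also called for OGD against control (adjusted p = 0.0422, against 0.0833 with it).

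SRXN1, sulfiredoxin, which restores overoxidised peroxiredoxins and is a known NRF2 target, had calls that depended on which libraries were kept. It had 14.1, 15.0 and 14.8 FPKM in OGD/R, 11.6, 11.8 and 10.7 in OGD, and 11.0 and 9.60 in control replicates 1 and 3, and was listed at 0 in control replicate 2. In all, 7 genes, SRXN1 among them, were at 0 in a library and above 10 FPKM in another library of any group. Whether this 0 is a failed estimate was not tested. With all libraries SRXN1 passed in no comparison, the adjusted p being 0.115 between OGD and control, 0.662 between OGD/R and OGD, and 0.0689 between OGD/R and control. Without control replicate 2 it was higher in OGD/R than in control (0.47, adjusted p = 0.00611) and than in OGD (0.34, adjusted p = 0.00863), and OGD against control did not pass (0.13, adjusted p = 0.335). The 0.34 lies below the median of all genes: with all libraries the relative value was -0.05. Median-of-ratios scaling, quantile normalization and length trend removal gave -0.10, -0.11 and -0.01 there with all libraries, none called. SRXN1 was also called for both treated groups against control when control replicate 1 or 3 was left out, in fits where the listed 0 remained (adjusted p from 0.0193 to 0.0372).

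In glutathione synthesis and recycling, the message of the last step of synthesis rose in OGD while those of the ligase subunit GCLM and of the reductase fell. GSR, glutathione reductase (NCBI Gene 2936, chromosome 8, 30678066 to 30727846), had 13.5, 18.4 and 16.4 FPKM in OGD/R, 8.51, 7.85 and 8.09 in OGD, and 19.1, 26.9 and 14.7 in control. OGD lay below all other libraries, while OGD/R overlapped control. GSR fell in OGD against control (-1.18, SE 0.18, adjusted p = 0.000238) and rose in OGD/R against OGD (0.89, SE 0.18, adjusted p = 0.000671), both kept on 4 scales. OGD/R against control did not pass (-0.28, adjusted p = 0.224), and GSR was called lower only when control replicate 3 was left out (adjusted p = 0.0316).

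GCLM, the modifier subunit of glutamate-cysteine ligase, averaged 6.67 ± 1.16 FPKM in OGD/R, 4.32 ± 0.226 in OGD and 8.54 ± 1.32 in control (SD, n = 3). Its fall in OGD against control was kept on 4 scales (-0.83, SE 0.15, adjusted p = 0.000573). The rise in OGD/R against OGD (0.52, relative value 0.13, adjusted p = 0.00678) was kept on none of the other scales, and its sign turned after quantile normalization (-0.06) and length trend removal (-0.13). Between OGD/R and control GCLM did not pass on the deposited scale (-0.32, adjusted p = 0.0982) and was called lower on the other 3. GCLC, the catalytic subunit, averaged 6.52 ± 1.41, 4.90 ± 0.344 and 6.99 ± 1.0 FPKM in OGD/R, OGD and control. Its fall in OGD against control (-0.43, relative value -0.12, adjusted p = 0.0269) was kept on none of the other scales, and was lost with no expression filter (adjusted p = 0.0527) and without OGD replicate 2 or 3 or control replicate 2 (adjusted p from 0.0658 to 0.0935). In OGD/R against OGD, GCLC was called higher without OGD/R replicate 1 (adjusted p = 0.0271, against 0.0625 with it). With all libraries its relative value there was -0.05, and the other scales gave -0.07, -0.23 and -0.23, none called.

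GSS, glutathione synthetase (NCBI Gene 2937, chromosome 20, 34928432 to 34956027, overlapping MYH7B), had 50.9, 55.4 and 50.4 FPKM in OGD/R, 70.8, 82.8 and 72.8 in OGD, and 63.1, 50.7 and 64.0 in control. OGD lay above the other groups, which overlapped. GSS rose in OGD against control (0.35, SE 0.10, adjusted p = 0.0135) and fell in OGD/R against OGD (-0.52, SE 0.10, adjusted p = 0.000748) on 4 scales. The rise was lost without OGD replicate 2 (adjusted p = 0.0717), and OGD/R against control (-0.17, adjusted p = 0.205) was called lower without control replicate 2 (adjusted p = 0.031). Within libraries the ratio of GSS to GCLM was 9.55, 7.54 and 6.89 in OGD/R, 15.5, 19.4 and 17.6 in OGD, and 8.40, 5.06 and 7.93 in control, so that OGD again stood apart from both other groups. With the length trend removed, the log2 fold change of GSS minus that of GCLM was 1.04 in OGD against control (1.18 as deposited). In OGD/R against OGD it was -0.74 (-1.04 as deposited). After quantile normalization these differences were 0.82 and -0.43.

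Among the glutathione peroxidases, GPX1 rose in OGD. GPX1, the cytosolic and mitochondrial selenoenzyme (NCBI Gene 2876, chromosome 3, 49357176 to 49358353), had 319.6, 273 and 317 FPKM in OGD/R, 539, 577 and 566 in OGD, and 376, 347 and 401 in control. The 3 groups did not overlap. It rose in OGD against control (0.58, SE 0.10, adjusted p = 0.000401) and fell in OGD/R against OGD (-0.89, SE 0.10, adjusted p = 6.07e-06) on 4 scales. The fall in OGD/R against control (-0.31, adjusted p = 0.0223) was not called with the length trend removed (adjusted p = 0.593) or quantile normalization (adjusted p = 0.172), in a fit of those 2 groups alone (adjusted p = 0.0651) or without OGD/R replicate 2 (adjusted p = 0.0846). The ratio of GPX1 to GSR, the peroxidase to the reductase that recharges its cosubstrate, was 23.6, 14.8 and 19.3 in OGD/R, 63.4, 73.5 and 70.0 in OGD, and 19.7, 12.9 and 27.2 in control. With the length trend removed, the corresponding difference of log2 fold changes was 1.25 in OGD against control (1.76 as deposited). In OGD/R against OGD it was -0.90 (-1.78 as deposited). After quantile normalization these differences were 1.14 and -0.90.

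GPX4, which reduces lipid hydroperoxides in membranes and restrains ferroptosis, averaged 287 ± 22.7 FPKM in OGD/R, 394 ± 25.9 in OGD and 335 ± 45 in control (SD, n = 3). GPX4 was called lower in OGD/R against OGD (-0.46, adjusted p = 0.00263) and after median-of-ratios scaling, but not after quantile normalization (-0.03, adjusted p = 0.707) or length trend removal (0.06, adjusted p = 0.494). It did not pass for OGD against control (0.24, adjusted p = 0.0791) or OGD/R against control (-0.22, adjusted p = 0.134), which were called without control replicate 3 (adjusted p = 0.0196) and without control replicate 2 (adjusted p = 0.0191) in that order. GPX8, a peroxidase of the endoplasmic reticulum, averaged 35.5 ± 1.43, 45.1 ± 3.15 and 46.9 ± 1.13 FPKM in OGD/R, OGD and control. It fell in OGD/R against OGD (-0.33, adjusted p = 0.00342) and against control (-0.39, adjusted p = 0.00301), on 4 scales each. GPX8 overlaps CDC20B.

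The 3 glutathione transferase members did not pass for OGD against control on the deposited scale, though they were called higher after median-of-ratios scaling (0.51 for GSTP1, 0.39 for MGST1 and 0.61 for MGST3). The membrane-bound MGST1 and MGST3 were lower after reoxygenation. GSTP1, the most abundant, had 311, 294 and 288 FPKM in OGD/R, 333, 374 and 369 in OGD, and 310.2, 311 and 353 in control. OGD/R and control overlapped, as did OGD and control. GSTP1 was called lower in OGD/R against OGD on the deposited scale (-0.27, adjusted p = 0.0188) and higher with the length trend removed (0.28, adjusted p = 0.00438), so its direction depends on the scale. That call was lost without OGD/R replicate 3 or OGD replicate 2 or 3 (adjusted p from 0.0695 to 0.0819).

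MGST1 and MGST3, microsomal enzymes that conjugate glutathione or reduce peroxides at membranes, had the same calls. MGST1, which overlaps LMO3, averaged 111 ± 13.7 FPKM in OGD/R, 165 ± 1.65 in OGD and 162 ± 6.03 in control (SD, n = 3), and fell in OGD/R against OGD (-0.57, adjusted p = 0.000141) and against control (-0.55, adjusted p = 0.000668). MGST3 averaged 113 ± 4.82, 207 ± 11.6 and 176 ± 24.7 FPKM in OGD/R, OGD and control, and fell against OGD (-0.86, adjusted p = 1.39e-05) and against control (-0.62, adjusted p = 0.000628). All 4 calls were kept on 4 scales. For OGD against control MGST3 (0.24, adjusted p = 0.0635) was called higher without control replicate 3 (adjusted p = 0.00649).

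GLRX and GLRX2, glutaredoxins, which reduce disulfides between proteins and glutathione, were called higher in OGD than in control on the deposited scale. GLRX (NCBI Gene 2745, chromosome 5, 95813849 to 95822726) had 94.3, 88.7 and 95.6 FPKM in OGD/R, 197, 203 and 207 in OGD, and 155, 145 and 163 in control. The 3 groups did not overlap, with OGD highest and OGD/R lowest. GLRX rose in OGD against control (0.39, SE 0.08, adjusted p = 0.00158), and fell in OGD/R against OGD (-1.12, SE 0.08, adjusted p = 3.57e-07) and against control (-0.73, SE 0.08, adjusted p = 5.42e-05), all on 4 scales. GLRX2, mainly mitochondrial, averaged 22.7 ± 5.09, 35.1 ± 2.90 and 26.6 ± 2.97 FPKM in OGD/R, OGD and control. Its rise in OGD against control (0.39, adjusted p = 0.0317) and fall in OGD/R against OGD (-0.63, adjusted p = 0.00159) were not called with the length trend removed (adjusted p = 0.146 and 0.166). The rise was also lost with no expression filter (adjusted p = 0.0719) and without OGD replicate 2 or 3 or control replicate 2 (adjusted p from 0.0675 to 0.114). GLRX2 in OGD/R against control (-0.24, adjusted p = 0.193) was called lower without OGD/R replicate 1 (adjusted p = 0.0212).

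Of SOD1, SOD2 and CAT, only CAT kept calls on 4 scales. CAT, the peroxisomal enzyme that splits hydrogen peroxide (NCBI Gene 847, chromosome 11, 34438934 to 34472060), averaged 15.9 ± 1.66 FPKM in OGD/R, 9.09 ± 0.256 in OGD and 18.5 ± 1.45 in control (SD, n = 3). OGD lay below every other library. CAT fell in OGD against control (-0.95, SE 0.11, adjusted p = 3.47e-05) and rose in OGD/R against OGD (0.74, SE 0.11, adjusted p = 5.86e-05) on 4 scales. OGD/R against control (-0.21, adjusted p = 0.138) was called lower after median-of-ratios scaling (-0.30) and quantile normalization (-0.31).

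SOD1, the cytosolic dismutase, had 260.3, 220.1 and 232 FPKM in OGD/R, 318, 338 and 342 in OGD, and 306, 271 and 416 in control. OGD lay inside the wide range of control. The falls in OGD/R against OGD (-0.49, adjusted p = 0.00641) and against control (-0.46, adjusted p = 0.0179) were not called with the length trend removed (0.05 and -0.15), and the first was not called after quantile normalization (adjusted p = 0.506). The second was lost with no expression filter (adjusted p = 0.0512) and without OGD/R replicate 2 or 3 (adjusted p from 0.0531 to 0.0718). SOD2, the mitochondrial dismutase, had 108, 136 and 121 FPKM in OGD/R, 100, 129 and 67.8 in OGD, and 86.9, 111 and 98.9 in control. All 3 groups overlapped, no comparison passed (adjusted p from 0.122 to 0.851), and OGD/R against OGD was called higher without OGD replicate 2 (adjusted p = 0.012) and after quantile normalization (adjusted p = 0.0444). The relative value of OGD/R against OGD with all libraries was -0.05. SOD2 overlaps WTAP and ACAT2.

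None of the 4 NADPH-supply members kept a call on 4 scales. TALDO1, transaldolase, had 127, 131 and 128 FPKM in OGD/R, 141, 133 and 139 in OGD, and 129.9, 118 and 137 in control, and PGD, 6-phosphogluconate dehydrogenase, averaged 51.3 ± 4.88, 46.7 ± 1.03 and 53.4 ± 3.53. Neither passed on the deposited scale (adjusted p from 0.0952 to 0.980), and both were called lower in OGD/R against OGD after median-of-ratios scaling (-0.57 and -0.34). TALDO1 was called higher in OGD against control by the same scaling (0.47, adjusted p = 0.00211). With the length trend removed TALDO1 was called higher, in OGD/R against OGD (0.18) and against control (0.22). TKT, transketolase, averaged 93.5 ± 3.47 FPKM in OGD/R, 74.5 ± 3.56 in OGD and 77.9 ± 3.56 in control. It was called higher in OGD/R against OGD (0.33, adjusted p = 0.00284) and control (0.26, adjusted p = 0.02), but neither call was kept after median-of-ratios scaling or length trend removal. That against control was lost in a fit of those 2 groups alone (adjusted p = 0.0682) and without OGD/R replicate 2 (adjusted p = 0.0578). ME1, the cytosolic malic enzyme, averaged 12.5 ± 0.906, 12.1 ± 1.42 and 15.8 ± 2.48 FPKM in OGD/R, OGD and control. Its fall in OGD against control (-0.35, relative value -0.04, adjusted p = 0.0337) was kept on none of the other scales, and was lost with no expression filter (adjusted p = 0.0544), in a fit of 2 groups (adjusted p = 0.0529) and without OGD replicate 2 or 3 or control replicate 2 (adjusted p from 0.0899 to 0.136). On the other 3 scales ME1 was called lower in OGD/R against both OGD and control, where the deposited values (0.04 and -0.31) did not pass. On the deposited scale the second of these was called lower without control replicate 1 (adjusted p = 0.0418).

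Transcript length moved with these calls. In OGD against control, the 12 members called higher had a median longest transcript of 1551 bases (869 to 2912) and the 8 called lower one of 3281 bases (1409 to 5769). Between OGD/R and OGD, the 18 lower members had a median of 1192 bases (869 to 3245) and the 10 higher ones 3101 bases (1409 to 5769). Members not called had medians of 1671 bases (961 to 14266) in the first comparison and 2544 bases (987 to 14266) in the second. Each gene's log2 value minus its mean over the 9 libraries was also set against log2 length, so the slopes are relative to the other libraries. Over all genes the slope ran from 0.131 to 0.228 in OGD/R, from -0.202 to -0.150 in OGD and from -0.071 to 0.055 in control. With the trend removed, NQO1 (2912 bases) still fell by 1.53 in OGD/R against OGD, and TXN (869 bases) by 0.67. Removal of the trend also centred the values (median of all genes -0.009 in OGD against control), so its effects mix length and centring. The calls listed above as kept on 4 scales hold after this removal, and the part of transcript length in the others was not tested further.

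**Figure D4:**
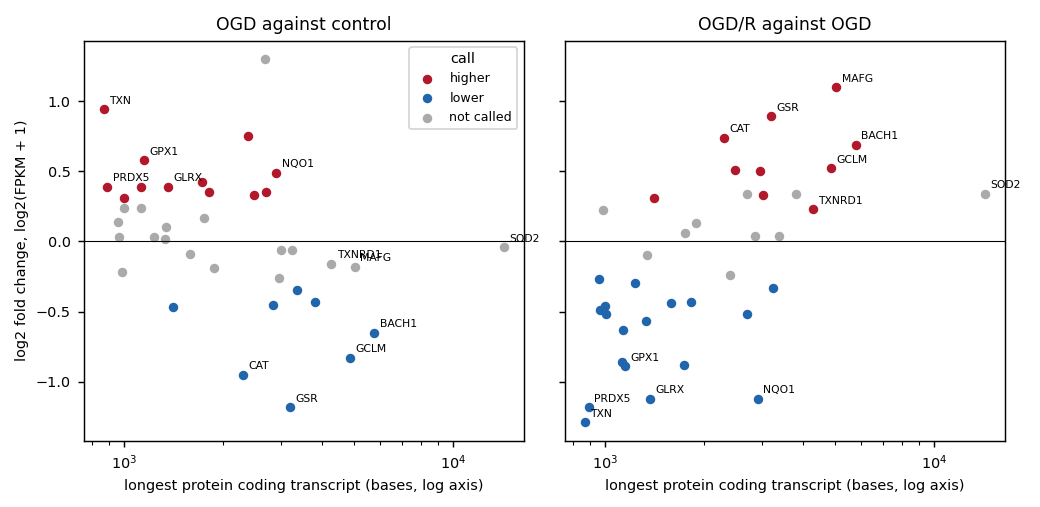
Log2 fold change (vertical axis) against the length of the longest protein coding transcript (bases, log axis) for the 38 tested members, in OGD against control (left) and OGD/R against OGD (right); colours give the call on the deposited scale. TXN (869 bases) and GPX1 (1151 bases) lie high on the left and low on the right, and GSR, BACH1 and GCLM the reverse. Not all short messages lie with TXN: PRDX2 (987 bases) reads -0.22 and 0.22, and AKR1B1 (1409 bases) reads -0.47 and 0.31. NQO1, at 2912 bases, lies with TXN and GPX1.

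Other genes of these pathways were taken from 4 lists, whose counts stand beside the all-gene shares of 11.3% higher and 46.7% lower in OGD against control, 53.3% and 17.4% in OGD/R against OGD, and 24.7% and 16.5% in OGD/R against control. Of other NRF2 targets and partners, 22 of 33 were tested: 6 were higher and 11 lower in OGD against control, 8 higher and 8 lower in OGD/R against OGD, and 4 higher and 6 lower in OGD/R against control, with medians of -0.26, -0.02 and 0.01. As shares, 27.3% were higher and 50% lower in the first of these, the second share being near that of all genes, and 36.4% each in the second. SLC3A2, the heavy chain of the cystine-glutamate exchanger and of other amino acid transporters, averaged 100.2 ± 5.34 FPKM in OGD/R, 182 ± 5.59 in OGD and 79.6 ± 18.3 in control, and its rise in OGD was kept on 4 scales (1.20, adjusted p = 2.41e-05). FTL, ferritin light chain, averaged 1011 ± 93.8, 3430.5 ± 125 and 1649.8 ± 166 FPKM in OGD/R, OGD and control, with a fall in OGD/R against OGD kept on 4 scales (-1.77, adjusted p = 2.42e-07) and a rise in OGD against control (1.06) not kept on all. EPHX1, an epoxide hydrolase, fell in OGD against control (-0.98, adjusted p = 0.000191), and PIR, pirin, fell in OGD/R against control (-1.02, adjusted p = 3.8e-05), on 4 scales each. NFE2L1, which encodes the related factor NRF1, averaged 29 ± 2.78 FPKM in OGD/R, 11.1 ± 0.257 in OGD and 15.9 ± 2.78 in control. NFE2L1 rose in OGD/R against OGD (1.30, adjusted p = 2.47e-06) and control (0.83, adjusted p = 0.000328) on 4 scales.

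SLC7A11, the cystine-importing chain xCT, was named after its values had been seen, for its role in feeding the glutathione system. It averaged 3.88 ± 0.434 FPKM in OGD/R, 9.93 ± 1.07 in OGD and 6.77 ± 0.403 in control (SD, n = 3). SLC7A11 rose in OGD against control (0.49, adjusted p = 0.0054), and fell in OGD/R against OGD (-1.16, adjusted p = 5.7e-06) and control (-0.67, adjusted p = 0.00121), on 4 scales each.

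Other thioredoxin and selenoprotein genes had 22 of 25 tested, with 6 higher and 4 lower in OGD against control, 4 higher and 11 lower in OGD/R against OGD, and 3 higher and 6 lower in OGD/R against control (medians 0.02, -0.20 and -0.16). As shares, 27.3% were higher and 18.2% lower in OGD against control, and 18.2% and 50% in OGD/R against OGD. TXNIP, which binds and inhibits thioredoxin, averaged 18 ± 2.11 FPKM in OGD/R, 1.08 ± 0.144 in OGD and 18.6 ± 1.17 in control. TXNIP fell in OGD against control (-3.24, adjusted p = 9.82e-09) and rose in OGD/R against OGD (3.19, adjusted p = 5.05e-09), so OGD was the group with the most TXN and the least TXNIP. SELENOK and SELENON, both selenoproteins of the endoplasmic reticulum, went in opposite directions. SELENOK averaged 43.2 ± 5.04, 188 ± 4.27 and 73.2 ± 11.6 FPKM in OGD/R, OGD and control, rising in OGD against control (1.36, adjusted p = 5.96e-06), while SELENON averaged 23.5 ± 3.47, 4.29 ± 0.117 and 11.1 ± 3.49, falling there (-1.15, adjusted p = 0.000384). In OGD/R against OGD, SELENOK fell (-2.10) and SELENON rose (2.20), in OGD/R against control they read -0.74 and 1.05, and all these calls were kept on 4 scales. SELENOT fell in OGD/R against control (-0.70, adjusted p = 0.00016).

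Other glutathione genes had 28 of 34 tested, with 4 higher and 11 lower in OGD against control, 7 higher and 12 lower in OGD/R against OGD, and 2 higher and 12 lower in OGD/R against control (medians -0.16, -0.22 and -0.26). The shares of 14.3% higher and 39.3% lower in OGD against control lie near those of all genes, and in OGD/R against OGD they were 25.0% and 42.9%. GSTO1, an omega class transferase, averaged 175 ± 7.67 FPKM in OGD/R, 382 ± 8.69 in OGD and 197 ± 35.7 in control, rising in OGD against control (0.96, adjusted p = 4.73e-05) and falling in OGD/R against OGD (-1.12, adjusted p = 3.98e-06). The glutathione-degrading cyclotransferases CHAC1 (-1.27, adjusted p = 1.33e-05) and CHAC2 (-0.96, adjusted p = 0.000697) and the transferase MGST2 (-0.89, adjusted p = 0.000146) fell in OGD/R against control. SLC25A40, a mitochondrial carrier, and GPX3, the secreted peroxidase, fell in OGD against control (-1.12 and -0.89), and ETHE1, a mitochondrial sulfur dioxygenase, fell in OGD/R against OGD (-1.13). These calls were kept on 4 scales.

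Other superoxide, NADPH and quinone genes had 19 of 24 tested, with 2 higher and 12 lower in OGD against control, 8 higher and 2 lower in OGD/R against OGD, and 4 higher and 5 lower in OGD/R against control (medians -0.37, 0.14 and -0.05). As shares, 10.5% were higher and 63.2% lower in OGD against control, and 42.1% and 10.5% in OGD/R against OGD. Of the 12 falls in OGD, among them those of CYB5R3 (-0.60) and MTHFD1 (-0.54), none was kept on 4 scales. CYB5R3, a reductase for cytochrome b5, averaged 71.3 ± 5.93 FPKM in OGD/R, 31.9 ± 2.74 in OGD and 48.9 ± 6.36 in control, and POR, the reductase for cytochromes P450, averaged 14.7 ± 1.59, 6.22 ± 0.489 and 9.0 ± 1.45. Both rose in OGD/R against OGD (1.14 and 1.11) and against control (0.54 and 0.65) on 4 scales. The one-carbon enzyme MTHFD1 also rose in OGD/R against OGD (1.10), and IDH1, which makes cytosolic NADPH, and PGLS of the pentose phosphate pathway fell in OGD/R against control (-0.60 and -0.59, adjusted p = 0.000393 and 0.000281).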

How the data were processed

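The authors deposited 1 table of FPKM values (fragments per kilobase of transcript, scaled to the fragments mapped), with 1 column per library. The submitters' processing notes name GRCh38, while the aligner, quantifier, annotation and use of strand were not given in the sources at hand. After adding 1 and taking log2, FPKM went into limma 3.58.1 (R 4.3.3), in 1 fit of 3 groups over 9 libraries (eBayes with trend, 6 residual and 6.33 prior degrees of freedom), over the 10818 genes that reached 1 FPKM in 3 or more libraries. P-values were 2-sided and adjusted by Benjamini and Hochberg over all genes tested. Fold changes on this scale understate changes of low genes. Alternatives were a pseudocount of 0.1, no filter, median-of-ratios scaling, quantile normalization, length trend removal (lowess on the longest GENCODE v29 transcript, 99.8% of genes), a replicate block, fits of 2 groups, and leaving out each library. The fit was also run on simulated data with 200 genes changed in OGD, as many up as down. That run cannot test how the fit handles the uncentred deposited scale. Genes were matched by NCBI Gene identifier to RefSeq GRCh38.p14, which gave coordinates, overlaps and promoters.

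All members are named. Those changed 2-fold in a comparison, or most abundant in their class, are given per library; of other lists, up to 3 called genes per comparison with at least 10 FPKM; some genes of these lists are not reported here. Members and lists were chosen with earlier results of these data known. Plots used matplotlib 3.10.9 (Python 3.11.15).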

Additional observations from a re-analysis of the deposited data

How the results depend on the processing

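Of 3 comparisons with 38 members each, no sign of a called value turned under a pseudocount of 0.1 FPKM, no filter, the replicate block, fits of 2 groups or any left-out library. Scaling mattered more. After median-of-ratios scaling, members called for OGD against control numbered 23 higher and 3 lower (against 12 and 8), while the shares of all genes became 26.5% and 23.1% (against 11.3% and 46.7%). For OGD/R against OGD, 3 members were higher and 25 lower (against 10 and 18), beside 32.6% and 34.2% of all genes (against 53.3% and 17.4%). For OGD/R against control, 3 were higher and 17 lower (against 5 and 13), beside 22.1% and 23.0% of all genes (against 24.7% and 16.5%). Length trend removal left 5 lower for OGD against control, beside 21.2% of all genes. A fit of 2 groups left 3 higher for OGD/R against control, beside 20.5% of all genes. Leaving out 1 library gave 8 to 14 higher and 6 to 9 lower for OGD against control, 9 to 12 and 17 to 18 for OGD/R against OGD, and 3 to 6 and 9 to 17 for OGD/R against control. The 3 came without OGD/R replicate 1 or 2. In those fits 9.01% to 12.5% of all genes were higher and 38.7% to 49.4% lower for OGD against control. The shares were 47.6% to 54.7% and 15.4% to 18.4% for OGD/R against OGD, and 17.6% to 27.9% and 12.6% to 17.4% for OGD/R against control.

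Signs turned as follows for OGD against control. After median-of-ratios scaling TXNRD1 read 0.21, PRDX3 0.28, GPX8 0.31 and TKT 0.30; after quantile normalization PRDX1 read -0.24; and after length trend removal TXNRD1 read 0.27, GPX8 0.31, TKT 0.27 and ME1 0.03. For OGD/R against OGD, median-of-ratios scaling gave NFE2L2 -0.42, AKR1B1 -0.16, TXNRD1 -0.23, PRDX6 -0.41, PGD -0.34, TKT -0.14 and ME1 -0.40. Quantile normalization gave PRDX1 0.13, GCLM -0.06, GSTP1 0.14 and ME1 -0.40. Length trend removal gave NFE2L2 -0.35, TXNRD1 -0.38, PRDX1 0.05, GCLM -0.13, GPX4 0.06, GSTP1 0.28, SOD1 0.05, TALDO1 0.18, TKT -0.11 and ME1 -0.47. For OGD/R against control, GSTP1 read 0.18 after length trend removal. In 45 further cases under these 3 scalings, and 19 with a library left out, a sign turned in a value called neither before nor after. The cause was not tested.

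Same-numbered libraries of different groups did not deviate together (r from -0.200 to 0.148), so numbers were not taken as pairs. With the replicate block, members called numbered 12 higher and 7 lower for OGD against control, 9 and 18 for OGD/R against OGD, and 5 and 12 for OGD/R against control. The shares of all genes under the block were 10.8% and 44.3%, 52.1% and 16.8%, and 22.9% and 15.3% in the same order. ME1, TXNRD1, PRDX1 and PRDX6 each lost a call under the block and SRXN1 gained one. Depth is unknown, so no counting limit can be given.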
